A study of Mus musculus with 14 samples.

Results

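A set of 9 genes of fibroblast growth factor (FGF) signaling were followed here: the receptors Fgfr1, Fgfr2, Fgfr3 and Fgfr4, the secreted binding protein Fgfbp1 and the ligands Fgf1, Fgf2, Fgf7 and Fgf21. They were chosen by gene symbol, and all 9 were found among the 23284 genes of each of 2 expression tables. EpH4 is an epithelial line from mouse mammary gland, and EpRas is EpH4 transformed with an H-Ras oncogene. The untransfected cells formed 4 groups of 2 libraries each: EpH4 and EpRas, without or with TGF-β3 at 1 ng/ml for 48 h. The siRNA experiment used EpRas cells only, with 1 library for each of 6 conditions: a control siRNA (siNC) or either of 2 siRNA pairs against the transcription factor genes Etv4 and Etv5, without or with the same TGF-β treatment. EpH4 cells were kept in 10% serum and EpRas cells in 4%, so the lines differ in serum as well as in the oncogene, and the parts of serum and oncogene in any difference between lines cannot be told apart.

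FGF ligands are secreted proteins that bind receptor tyrosine kinases together with heparan sulfate chains on the cell surface, and the activated receptor signals largely through adaptor proteins to Ras and the MAP kinases. Splicing gives Fgfr2 an epithelial form, which is the receptor of the mesenchymal ligand Fgf7, and a mesenchymal form with other ligands. In the mammary gland, Fgfr2 is known for its part in branching of the ducts. Fgfbp1 releases FGFs from the matrix, and Fgf21 is an endocrine ligand that needs the co-receptor Klb. Etv4 and Etv5 are ETS-family factors whose genes are known as targets of FGF and Ras signaling. The tables give values per gene, so splice forms of the receptors were not separated.

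The sequences upstream of 3 members are shown because these are the tested members with a RefSeq promoter window. Each window holds the 250 bases before a RefSeq start site of the gene (GRCm38.p6), read 5′ to 3′ on the strand of the gene. For Fgfbp1 the RefSeq span of the gene reaches to 43981828, so the window takes in its outermost bases. For Fgfr2 the start site is the end of the gene in the deposited table, but the bases that follow it were not found in the GENCODE transcripts of the gene. Capitals mark GGAA or its reverse complement, the core that ETS factors bind.

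Fgfr2, chr7:130266809-130267058, minus strand: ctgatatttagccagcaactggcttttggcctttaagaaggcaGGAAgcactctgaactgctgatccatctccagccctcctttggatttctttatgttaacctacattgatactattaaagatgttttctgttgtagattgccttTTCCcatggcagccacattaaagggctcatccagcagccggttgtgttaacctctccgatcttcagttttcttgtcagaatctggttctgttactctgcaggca
Fgfbp1, chr5:43981800-43982049, minus strand: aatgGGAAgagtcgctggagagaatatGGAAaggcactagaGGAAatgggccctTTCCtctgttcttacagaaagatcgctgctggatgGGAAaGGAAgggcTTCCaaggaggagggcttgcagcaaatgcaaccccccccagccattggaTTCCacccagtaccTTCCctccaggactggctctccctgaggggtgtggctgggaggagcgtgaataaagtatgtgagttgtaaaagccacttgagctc
Fgf21, chr7:45615491-45615740, minus strand: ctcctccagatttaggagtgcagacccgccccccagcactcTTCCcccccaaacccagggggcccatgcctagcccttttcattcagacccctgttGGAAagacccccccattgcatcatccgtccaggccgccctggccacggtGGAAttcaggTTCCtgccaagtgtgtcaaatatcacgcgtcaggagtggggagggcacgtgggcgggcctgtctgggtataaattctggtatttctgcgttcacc

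GGAA, searched on both strands, occurred 2 times in the Fgfr2 window, 9 times in the Fgfbp1 window and 4 times in the Fgf21 window. It is present in 93.5% of 32841 promoter windows of this length, so its presence sets none of the 3 apart. The longer ETS motif CGGAAG, which contains GGAA and is present in 13.6% of windows, had no match in any of the 3. The AP-1 motif TGANTCA (6.75% of windows) and the E-box CAGGTG (17.2% of windows) had no match in them either. CAGAC, the short motif that Smad proteins bind, occurred 3 times in the Fgf21 window and had no match in the other 2, while 42.2% of all windows hold it. These are matches of letters and not measured sites.

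The values are FPKM, fragments scaled to gene length and to the depth of the library. The deposited values give no read totals, but relative depths could be read from the steps of low genes and lay between 0.609 and 1.36 among the untransfected libraries and between 1 and 1.74 among the siRNA libraries, each relative to 1 library of the same table. All 6 markers of luminal epithelium reached 5 FPKM in both tables, and none of 4 endothelial markers did. Of 7 fibroblast markers 3 reached 5 FPKM, while Lum and Thy1 were listed at 0 in every library; the summed level of the 7 lay between 22.6 and 247 FPKM in EpH4 libraries and between 8.42 and 13.5 FPKM in untransfected EpRas libraries. The fibroblast sum is largely Col1a1, which alone reached 223.5 FPKM. The summed level of 5 basal epithelial markers lay between 334 and 864 FPKM in EpH4 libraries and between 64.1 and 117 FPKM in untransfected EpRas libraries, with 3 of the 5 reaching 5 FPKM. This sum is largely Krt14 (62.2 to 851 FPKM), and no other basal marker exceeded 8.64 FPKM in untransfected cells. Of 5 immune markers 2 reached 5 FPKM, with sums of 1.81 to 8.49 FPKM in EpH4 and 4.50 to 8.27 FPKM in EpRas libraries, and of 4 adipocyte markers 1 did, with sums of 0.537 to 8.13 and 0.342 to 2.54 FPKM. The part of these markers in the differences below was not tested. In bulk RNA, fewer cells of a type and less RNA per cell cannot be told apart. The study describes the 2 libraries of each untransfected group as biological replicates, and the p-values measure the spread between them.

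Fgfr1 and Fgfbp1 were the abundant members. In the untransfected table the median of Fgfr1 over 8 libraries was 73.6 FPKM and that of Fgfbp1 was 70.9 FPKM. By their means over these libraries, they were at or above 94.5% and 95.2% of all genes. Fgfr2 reached 9.85 FPKM at its highest. Fgf21 passed 5 FPKM only in EpH4 cells with TGF-β, and Fgf1 passed 1 FPKM only there. Fgfr3 stayed between 0.404 and 1.17 FPKM. Fgf2 and Fgf7 did not exceed 0.482 FPKM, and Fgfr4 was listed at 0 in 7 of 8 libraries. Genes were tested where at least 1 library reached 5 FPKM, which 4 members did in the untransfected table (Fgfr1, Fgfr2, Fgfbp1 and Fgf21) and 2 in the siRNA table (Fgfr1 and Fgfbp1). Fgfr2 and Fgf21 each passed only through the group in which they were highest, untreated EpH4 cells for Fgfr2 and treated EpH4 cells for Fgf21, so their p-values in comparisons with that group are not independent of the filter.

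**Figure D1:**
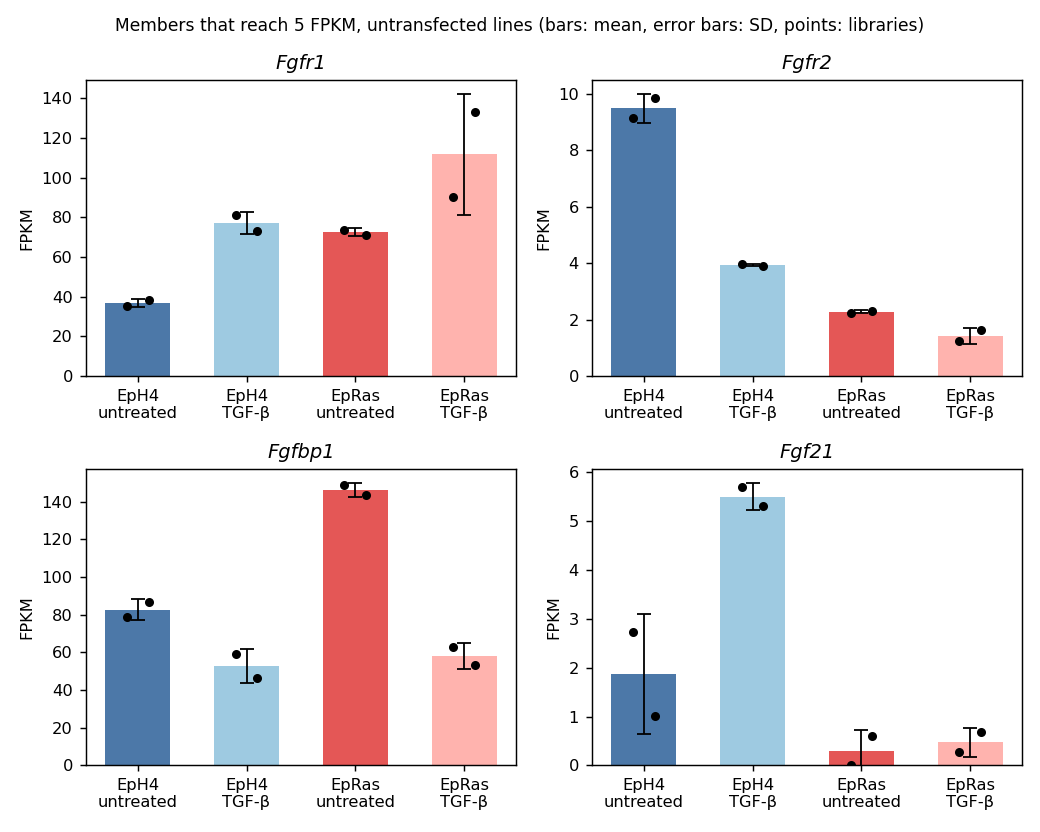
FPKM of the 4 members that reached 5 FPKM in the untransfected cells, by line and treatment, with bars for the mean of 2 libraries, error bars for the SD and points for the libraries. Fgfr1 is lowest and Fgfr2 highest in untreated EpH4 cells, Fgfbp1 is highest in untreated EpRas cells, and both Fgf21 values above 5 FPKM are from EpH4 cells with TGF-β.

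Fgfr1, a receptor found widely in mesenchyme, was higher in EpRas than in EpH4 cells and higher with TGF-β in EpH4 cells. It measured 35.5 and 38.4 FPKM in untreated EpH4 cells, and 81.2 and 73.3 FPKM after treatment with TGF-β. EpRas cells had 73.9 and 71.2 FPKM untreated, and 90.1 and 133 FPKM with TGF-β. Untreated EpH4 cells were thus below all other groups, untreated EpRas and treated EpH4 cells overlapped, and the libraries of treated EpRas cells were the highest but stood farthest apart (112 ± 30.6 FPKM, SD, n = 2). Fgfr1 lies on chromosome 8 from 25518759 to 25575718 (GRCm38.p6, RefSeq).

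Without TGF-β, Fgfr1 was 0.96 higher in EpRas than in EpH4 cells on the log2(FPKM + 1) scale (limma, SE 0.20, adjusted p = 0.0190), in means a ratio of 1.96. With TGF-β the difference was 0.50 (limma, SE 0.20, adjusted p = 0.123). TGF-β raised Fgfr1 by 1.04 in EpH4 cells (limma, SE 0.20, adjusted p = 0.0216), a ratio of 2.09. In EpRas cells the difference with TGF-β was 0.59 (limma, SE 0.20, adjusted p = 0.214), and the treated libraries did not overlap the untreated ones. Each of the 2 calls was lost when any 1 of the 4 libraries compared was left out, with adjusted p from 0.0746 to 0.0987 for the lines and from 0.0923 to 0.172 for TGF-β in EpH4 cells, and also with a Tukey-Kramer test on FPKM. Without the first EpRas library with TGF-β, Fgfr1 was also called for TGF-β in EpRas cells (0.87) and for the lines with TGF-β (0.78). Without the second, the difference between the lines with TGF-β fell to 0.22. Quantile normalization also gave a call for the lines with TGF-β (0.56, limma, adjusted p = 0.0478).

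Fgfr2 went the other way. It measured 9.13 and 9.85 FPKM in untreated EpH4 cells and 3.97 and 3.92 FPKM after TGF-β. In EpRas cells it measured 2.25 and 2.31 FPKM untreated, and 1.23 and 1.63 FPKM with TGF-β. The 4 groups did not overlap, in the order untreated EpH4, treated EpH4, untreated EpRas and treated EpRas. The gene lies on chromosome 7 from 130162451 to 130266808 (GRCm38.p6, RefSeq, minus strand), the span it also has in the deposited values. Its GENCODE model is longer and reaches to 133123350. The exons of that longer model share 314 bases on the same strand with Ctbp2, which measured 24.2 to 36.2 FPKM. Whether the shared bases lie within the span of the deposited values was not tested.

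Fgfr2 was 1.68 lower on the log2 scale in EpRas than in EpH4 cells without TGF-β (log2 change -1.68, limma, SE 0.15, adjusted p = 0.000445), and the adjusted p was 0.000708 among all genes above 0, which Fgfr2 enters without the filter. In means this is 4.17-fold. With TGF-β the log2 change between the lines was -1.03 (limma, SE 0.15, adjusted p = 0.00317). Neither call changed under any alternative that could test the gene. TGF-β lowered Fgfr2 in EpH4 cells (log2 change -1.08, limma, SE 0.15, adjusted p = 0.00513, and 0.00459 among all genes above 0), in means 2.41-fold. That call was lost without the first or the second EpH4 library with TGF-β (adjusted p = 0.0621 for each). In EpRas cells the log2 change with TGF-β was -0.44 (limma, SE 0.15, adjusted p = 0.210).

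The ratio of Fgfr1 to Fgfr2, both on the FPKM scale, puts the opposite changes together. It was 3.88 and 3.90 in untreated EpH4 cells, 20.4 and 18.7 in treated EpH4 cells, 32.9 and 30.8 in untreated EpRas cells and 73.2 and 81.6 in treated EpRas cells. Fgfr1 made up 78.5% and 78.9% of the summed FPKM of the 4 receptors in untreated EpH4 cells and between 93.6% and 98.3% in the other untransfected libraries. The groups did not overlap in the ratio. Since it combines values already tested, no test was made of it.

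**Figure D2:**
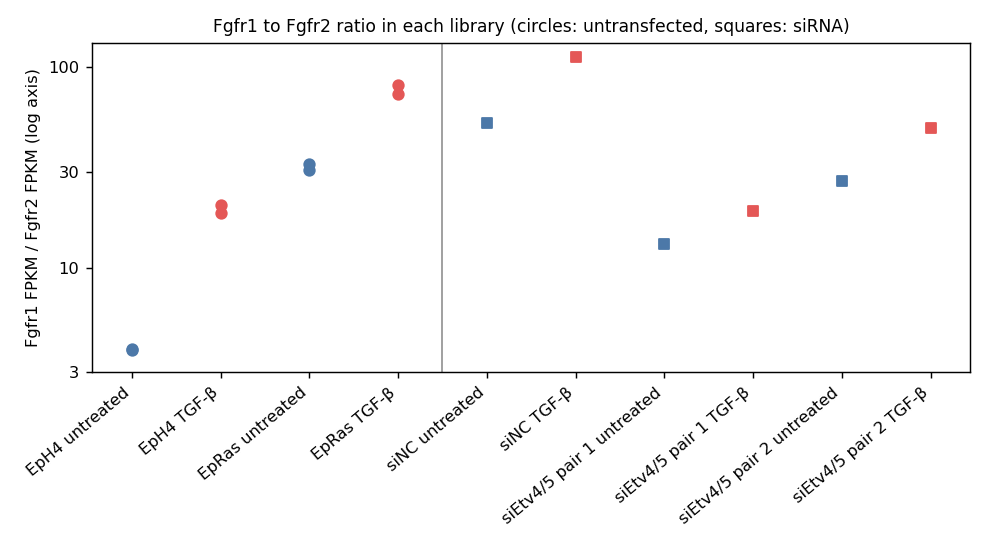
Ratio of Fgfr1 FPKM to Fgfr2 FPKM in each of the 14 libraries on a log axis, with circles for the untransfected cells, squares for the siRNA libraries, blue for untreated and red for TGF-β. The ratio runs from 3.88 in untreated EpH4 cells to 112 in siNC cells with TGF-β, and is lower with either Etv4/5 siRNA pair than with siNC.

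The remaining receptors were low or hardly detected. Fgfr3, known for its role in cartilage, measured 0.589 and 0.404 FPKM in untreated EpH4 cells and 1.13 and 1.06 FPKM with TGF-β. EpRas cells had 1.17 and 0.449 FPKM untreated, and 0.935 and 0.635 FPKM with TGF-β, so that the EpRas groups overlapped. When all genes above 0 were tested, its TGF-β difference in EpH4 cells was 0.49 (limma, SE 0.21, adjusted p = 0.258). Its exons share 998 bases with the opposite-strand model G630022F23Rik, and whether counting used the strand is not given in the sources used here. Fgfr4, the receptor of bile acid signaling in the liver, had 1 read in 1 EpH4 library with TGF-β and 2 reads in 1 siRNA library. A count of 0 allows up to 3 reads, which for Fgfr4 is 0.128 to 0.285 FPKM in the untransfected libraries, and intervals and limits from reads cover counting error only.

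Fgfbp1 was highest in untreated EpRas cells and lower with TGF-β. It measured 78.7 and 86.5 FPKM in untreated EpH4 cells and 59.2 and 46.3 FPKM with TGF-β. EpRas cells had 149 and 144 FPKM untreated, and 63.1 and 53.4 FPKM with TGF-β. Untreated EpRas cells stood above all other groups, and the treated groups of the 2 lines overlapped. The gene lies on chromosome 5 from 43978858 to 43981828 (GRCm38.p6, RefSeq, minus strand).

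Without TGF-β, Fgfbp1 was 0.82 higher in EpRas cells (limma, SE 0.18, adjusted p = 0.020), in means 1.77-fold. With TGF-β the difference between the lines was 0.15 (limma, SE 0.18, adjusted p = 0.590). TGF-β lowered it in EpRas cells (log2 change -1.32, limma, SE 0.18, adjusted p = 0.00783), in means 2.51-fold. In EpH4 cells the log2 change was -0.65 (limma, SE 0.18, adjusted p = 0.0666), which passed with a pseudocount of 5 FPKM (adjusted p = 0.0470), without the first EpRas library with TGF-β (adjusted p = 0.0495) and with a Tukey-Kramer test on FPKM. The call between the lines was lost when any 1 of the 4 libraries was left out (adjusted p from 0.0693 to 0.101). The call in EpRas cells was lost without the first (adjusted p = 0.0736) or the second (adjusted p = 0.0567) untreated EpRas library and when only the 2 EpRas groups were fitted (adjusted p = 0.0829).

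Among the ligands, Fgf21 and Fgf1 had their highest values in EpH4 cells with TGF-β. Fgf21, a hormone made mainly by liver, measured 2.74 and 1.01 FPKM in untreated EpH4 cells and 5.70 and 5.32 FPKM with TGF-β. These values stand for 12 and 6 reads, and for 18 and 25 reads. In EpRas cells it was listed at 0 and 0.605 FPKM untreated, and measured 0.266 and 0.685 FPKM with TGF-β, from 0, 3, 1 and 2 reads. The EpRas groups overlapped, and every EpH4 library was above every EpRas library.

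With TGF-β, Fgf21 was lower in EpRas than in EpH4 cells (log2 change -2.15, limma, SE 0.34, adjusted p = 0.00450). Among all genes above 0, which Fgf21 enters without the filter, the adjusted p was 0.0120 (limma). Without TGF-β the log2 change was -1.11 (limma, SE 0.34, adjusted p = 0.0652). It was -0.67 without the first untreated EpH4 library and -1.56 without the second, the only alternative in which it passed the test. The TGF-β difference in EpH4 cells was 1.25 (limma, SE 0.34, adjusted p = 0.0667, and 0.111 among all genes above 0) and passed with a pseudocount of 5 FPKM (adjusted p = 0.0442), without the first untreated EpH4 library (adjusted p = 0.0487) and with a Tukey-Kramer test on FPKM. From pooled reads corrected for depth it was 3.14-fold, with an exact 95% interval of 1.77 to 5.78 that covers counting error and not the spread between libraries. In EpRas cells the difference was 0.21 (limma, SE 0.34, adjusted p = 0.836). Klb, the co-receptor of Fgf21, did not exceed 0.146 FPKM in these libraries. Fgf21 lies on chromosome 7 from 45613890 to 45615490 (GRCm38.p6, RefSeq, minus strand).

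Fgf1, a ligand that can bind all of the receptors, was listed at 0 and 0.0677 FPKM in untreated EpH4 cells and at 1.65 and 1.07 FPKM with TGF-β, which stand for 0 and 2 reads, and 26 and 25 reads. In EpRas cells it was listed at 0 in both untreated libraries and at 0.0535 and 0.0689 FPKM with TGF-β, 1 read in each. The treated EpH4 libraries were far above all others. From pooled reads corrected for depth, the TGF-β ratio in EpH4 cells was 33.5 (exact 95% interval 8.80 to 284, for counting error only). Fgf1 was under the filter of 5 FPKM, and when all genes above 0 were tested it rose by 1.18 with TGF-β in EpH4 cells (limma, SE 0.13, adjusted p = 0.00688) and was lower in EpRas than in EpH4 cells with TGF-β (log2 change -1.14, limma, SE 0.13, adjusted p = 0.00358). In that test 7.27% of 15244 genes were called for TGF-β in EpH4 cells and 18.1% between the lines with TGF-β. Its difference between lines in the TGF-β effect was -1.10 on the log2 scale (limma, SE 0.19, adjusted p = 0.0919, with 0.768% of all genes above 0 called). Fgf1 lies on chromosome 18 from 38838672 to 38929470 (GRCm38.p6, RefSeq).

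Fgf7 and Fgf2 were hardly detected. Fgf7, the keratinocyte growth factor that stroma makes for epithelium, had 7 and 5 reads in untreated EpH4 cells (0.482 and 0.254 FPKM) and 0 in both libraries with TGF-β. Set against the limit of 3 reads over the treated group, its level was 3.05-fold higher in the untreated cells. The 12 untreated reads were taken as exact there, so this is not a lower limit of the ratio. In EpRas cells it had 3 and 0 reads untreated, and 1 and 0 reads with TGF-β. When all genes above 0 were tested, the TGF-β change of Fgf7 in EpH4 cells was -0.45 (limma, SE 0.16, adjusted p = 0.195). Fgf2, a ligand without a classical signal peptide, had 1 read in each of 3 libraries and 0 in the other 5. For Fgf2 the limit of 3 reads is 0.763 to 1.70 FPKM in the untransfected libraries, so a low level could go unseen. Its exons share 640 bases with the opposite-strand gene Nudt6, which measured 3.46 to 10.3 FPKM.

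**Figure D3:**
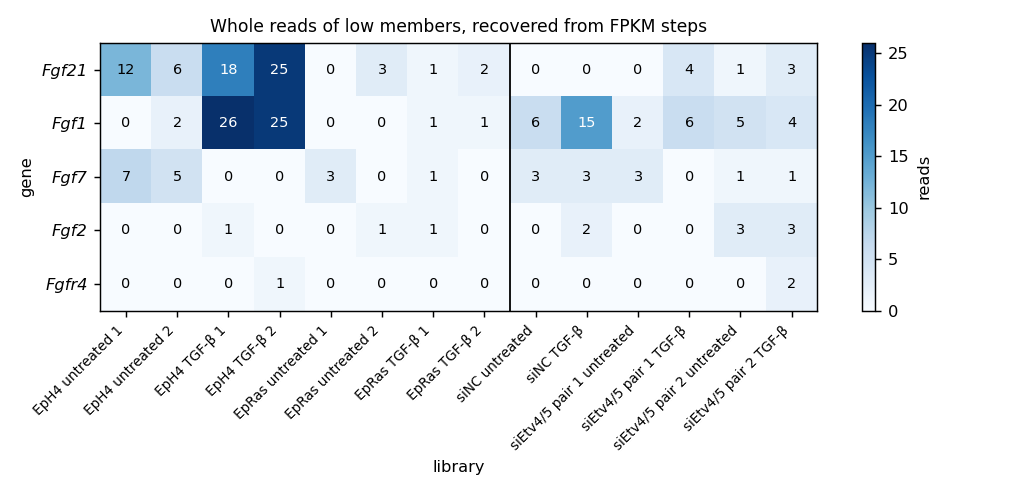
Whole reads of the 5 members with few reads, 1 column for each library (8 untransfected, then 6 siRNA), with darker blue for more reads. The 26 and 25 reads of Fgf1 and the 18 and 25 reads of Fgf21 are from EpH4 cells with TGF-β, and Fgf2 and Fgfr4 have at most 3 reads in any library.

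Over the 4 tested members, limma with the adjusted p under 0.05 called 3 between the lines without TGF-β, where 17.6% of 9100 genes were called. It called 2 between the lines with TGF-β (21.3% of genes). For TGF-β in EpH4 cells 2 were called (9.4% of genes), and for TGF-β in EpRas cells 1 (3.82% of genes). The first and the EpH4 count include Fgfr2, and the count between the lines with TGF-β includes Fgf21, each of which had passed the filter through a group of that comparison, so the counts are not read against the shares. The comparisons also share libraries. No member was called in the test of the difference between lines in the TGF-β effect, where 73 genes (0.802%) were. There, Fgfr2 had 0.65 (limma, SE 0.21, adjusted p = 0.325) and Fgfbp1 had -0.67 (limma, SE 0.25, adjusted p = 0.374), both with an unadjusted p under 0.05, while Fgfr1 had -0.45 (adjusted p = 0.621) and Fgf21 had -1.04 (adjusted p = 0.494). The TGF-β effects on the members were therefore not shown to differ between the lines.

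**Figure D4:**
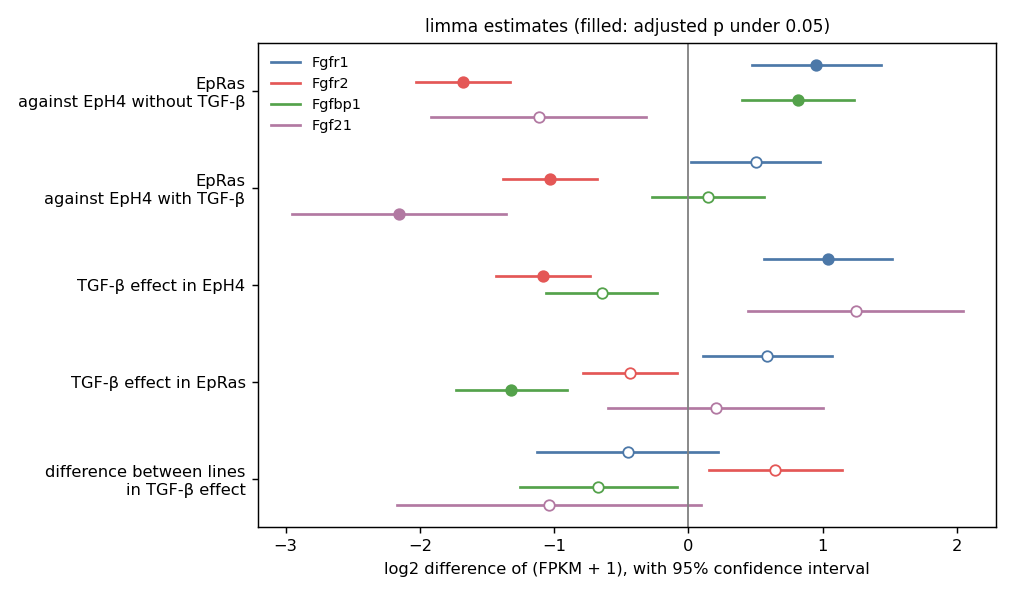
limma estimates for the 4 tested members in the 5 comparisons, as differences of log2(FPKM + 1) with 95% confidence intervals, filled where the adjusted p is under 0.05. Fgfr1 lies above 0 and Fgfr2 below 0 in the first 4 comparisons, and no symbol is filled for the difference between the lines.

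The siRNA libraries asked whether the members change in EpRas cells when Etv4 and Etv5 are lowered. Both targets were lower in these libraries, in which Etv4 was 0.202 and 0.485 of its siNC level without TGF-β for pair 1 and pair 2, and 0.196 and 0.294 with TGF-β, while Etv5 lay between 0.142 and 0.232 of its siNC level. With 1 library for each condition, no single pair can be tested against siNC within a treatment, and a gene was counted where it differed by 2-fold or more on the log2(FPKM + 1) scale in the same direction with both pairs. Neither of the 2 members that reached 5 FPKM was counted, beside 4.02% of genes without TGF-β and 3.82% with it.

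Fgfr2 was higher with both siRNA pairs than with siNC. Without TGF-β the siNC library measured 1.31 FPKM, against 3.93 for pair 1 and 2.93 for pair 2. With TGF-β it measured 0.904, 4.62 and 2.66 FPKM in the same order. Every library with an Etv4/5 siRNA was above both siNC libraries, and the untransfected EpRas libraries, from a table scaled separately, lay between 1.23 and 2.31 FPKM. The ratios to siNC were 3.0 and 2.24 without TGF-β, and 5.11 and 2.94 with it.

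The interval that Cuffdiff gives for Fgfr2 reached from 0.0545 to 1.75 FPKM with siNC and TGF-β and from 1.91 to 7.33 FPKM with pair 1 and TGF-β. These 2 do not overlap. The interval of pair 2 with TGF-β, 0.895 to 4.42 FPKM, overlapped that of siNC. Without TGF-β, the siNC interval of 0.196 to 2.42 FPKM overlapped that of pair 1, 1.52 to 6.34 FPKM, and that of pair 2, 1.04 to 4.82 FPKM. Fgfr2 stayed under 5 FPKM in all 6 libraries and was outside the genes counted above. With no filter and a pseudocount of 0.1 FPKM, a setting added after the values had been seen, Fgfr2 passed 2-fold with both pairs with and without TGF-β, together with Fgfr3 without TGF-β and Fgf21 with it. Fgf21 was there at 0 reads with siNC against 4 and 3 reads with the pairs, so its fold is set by the pseudocount. That rule counted 9.31% of 15608 genes without TGF-β and 8.23% with it. In a limma fit over the 6 libraries with terms for TGF-β and for the knockdown, also added later, Fgfr2 was 1.09 higher (SE 0.22, adjusted p = 0.107) when all genes above 0 were tested. That fit takes the 2 siRNA pairs as replicates of 1 knockdown, although each condition had 1 library, so its SE also holds differences between the pairs.

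Fgfr1 measured 69.0 FPKM with siNC, 51.6 with pair 1 and 78.9 with pair 2, all without TGF-β. With TGF-β it measured 101, 88.4 and 132 FPKM. Pair 1 was below and pair 2 above siNC in both cases, so the pairs disagreed in direction. Fgfbp1 measured 122 FPKM with siNC, 160 with pair 1 and 155 with pair 2 without TGF-β, and 65.7, 83.4 and 66.6 FPKM with it. Its ratios to siNC lay between 1.01 and 1.31. In the limma fit with a knockdown term, Fgfbp1 was 0.27 higher (95% interval -0.13 to 0.66, adjusted p = 0.369) and Fgfr1 was -0.01 (95% interval -0.61 to 0.59, adjusted p = 0.986). This fit takes the pairs as replicates, so the value for Fgfr1 averages over opposite directions.

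The ratio of Fgfr1 to Fgfr2 was 52.7 with siNC, 13.1 with pair 1 and 26.9 with pair 2 without TGF-β. With TGF-β it was 112, 19.1 and 49.5. It was higher with TGF-β in all 3 siRNA conditions, and lower with each pair than with siNC.

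**Figure D5:**
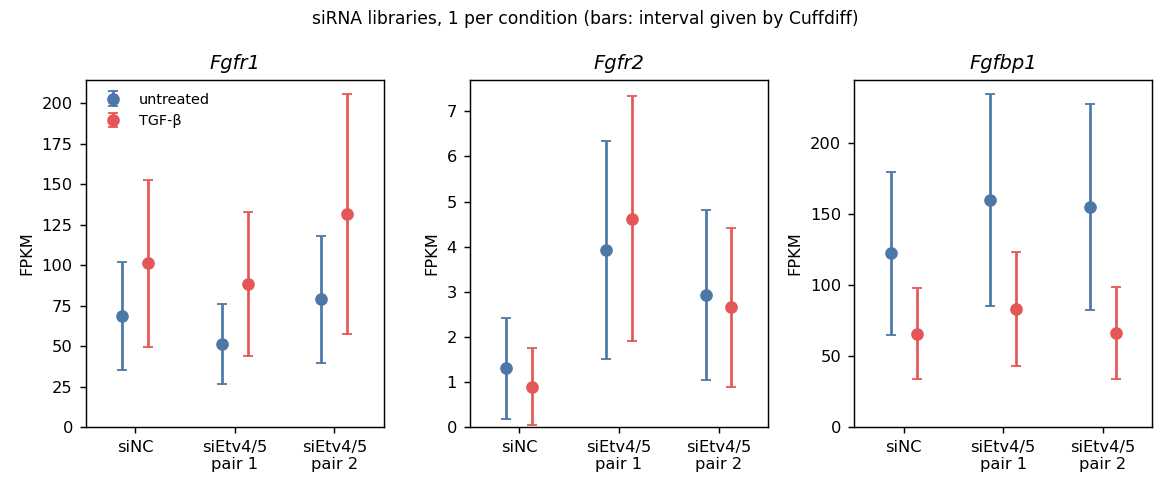
FPKM of Fgfr1, Fgfr2 and Fgfbp1 in the 6 siRNA libraries, 1 for each condition, with blue for untreated and red for TGF-β and bars for the interval that Cuffdiff gives. Fgfr2 is between 2.66 and 4.62 FPKM with the Etv4/5 siRNAs against 0.904 and 1.31 FPKM with siNC, and Fgfbp1 is lower with TGF-β in each condition.

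TGF-β was also compared among the siRNA libraries. Over the 3 siRNA conditions as blocks, TGF-β lowered Fgfbp1 (log2 change -1.01, limma, SE 0.14, adjusted p = 0.0270), beside 4.17% of 9094 genes called, and Fgfbp1 was lower in 3 of 3 conditions. The difference for Fgfr1 was 0.68 (limma, SE 0.13, adjusted p = 0.0580), higher in 3 of 3 conditions, which passed with a pseudocount of 5 FPKM (adjusted p = 0.0431) and without siNC (adjusted p = 0.0448). The call of Fgfbp1 was lost without pair 1 (adjusted p = 0.162), without pair 2 (adjusted p = 0.116) and when all genes above 0 were tested (adjusted p = 0.0817). Fgfr2 was lower with TGF-β in siNC and pair 2 cells and higher in pair 1 cells, and its log2 change was -0.06 (limma, SE 0.12, adjusted p = 0.860) when all genes above 0 were tested.

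The low members stayed low in the siRNA libraries. Fgf1 had between 2 and 15 reads in each library, the most with siNC and TGF-β. Fgf21 had 4 and 3 reads with pair 1 and pair 2 in the presence of TGF-β, 1 read with pair 2 alone and 0 in the other 3 libraries. Fgf7 and Fgf2 had at most 3 reads, and Fgfr3 did not exceed 0.652 FPKM.

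Of the 22 FGF ligand genes, 9 were listed at 0 in all 8 untransfected libraries and 6 reached 1 FPKM in at least 1. Outside the members, Fgf13 alone reached 5 FPKM. Fgf13 is one of the FGF homologs that stay in the cell and do not act through these receptors. It was lower in EpRas than in EpH4 cells without TGF-β (log2 change -1.10, limma, adjusted p = 0.00411) and with it (log2 change -1.44, limma, adjusted p = 0.000815). The decoy receptor Fgfrl1 was higher in untreated EpRas cells (1.07, limma, adjusted p = 0.0156), a call lost without the first untreated EpH4 library or either untreated EpRas library (adjusted p up to 0.0881).

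Of 106 other genes of the pathway, 62 were tested in the untransfected table. Without TGF-β 10 were higher and 12 lower in EpRas cells, beside 769 higher and 829 lower of all 9100 genes (17.6% called). With TGF-β 7 were higher and 17 lower, beside 812 and 1123 (21.3% called). TGF-β raised 7 and lowered 2 in EpH4 cells, where 9.4% of all genes were called, and raised 3 and lowered 2 in EpRas cells, where 3.82% were. The median log2 change of the 62 was 0.03, -0.19, 0.15 and 0.00 in these comparisons, beside medians of all tested genes of 0.00, -0.01, -0.02 and -0.02. None of the 62 was called for the difference between lines in the TGF-β effect by limma. In 17 of the 47 pairs of a named gene and a comparison of untransfected cells, 1 of the groups compared was under 5 FPKM in both libraries while the other was not, so the p is not independent of the filter. Of these 17, 15 were also called among all genes above 0, and Hs3st1 and Gab2 with TGF-β in EpRas cells were not.

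Proteins that bind FGFs or their receptors included the largest of these differences. Cdh2, which encodes N-cadherin and can associate with Fgfr1, was nearly undetected without TGF-β in EpH4 (0.0524 ± 0.0342 FPKM, SD, n = 2, as for the group means that follow) but measured 31.0 ± 6.84 FPKM in EpRas (log2 change 4.91, limma, adjusted p = 1.06e-05, and 8.95e-05 among all genes above 0). With TGF-β the change was 4.32 (limma, adjusted p = 1.39e-05, and 0.000101 among all genes above 0). L1cam, another adhesion molecule of this list, was higher in EpRas cells with TGF-β (1.24, limma, adjusted p = 0.00468, and 0.00776 among all genes above 0). Ncam1, a neural adhesion molecule that can bind Fgfr1, rose with TGF-β from 4.69 ± 1.80 to 23.6 ± 0.0441 FPKM in EpH4 cells (2.15, limma, adjusted p = 0.0015). The rise in EpRas cells was from 3.33 ± 0.5 to 14.3 ± 1.45 FPKM (1.82, limma, adjusted p = 0.00618), though not without the second untreated EpRas library (adjusted p = 0.0556) or when only the 2 EpRas groups were fitted (adjusted p = 0.0521).

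Of 8 tested heparan sulfate proteoglycans, 1 was higher and 1 lower in untreated EpRas cells, and 4 were lower with TGF-β, beside the 17.6% and 21.3% of all genes called. Sdc3, a syndecan, measured 14.8 ± 0.436 and 6.16 ± 0.509 FPKM in untreated EpH4 and EpRas cells and 51.2 ± 0.136 and 17.4 ± 1.93 FPKM with TGF-β. It was lower in EpRas cells in both cases (log2 changes -1.14 and -1.51, limma, adjusted p = 0.00272 and 0.000514), and TGF-β raised it by 1.72 in EpH4 cells (limma, adjusted p = 0.000683) and by 1.36 in EpRas cells (limma, adjusted p = 0.00347, and 0.0776 when only the 2 EpRas groups were fitted). The glypican Gpc1 was higher in untreated EpRas cells (1.15, limma, adjusted p = 0.0203), not without the second untreated EpH4 library or either untreated EpRas library (adjusted p up to 0.120). With TGF-β, Sdc1 (-1.19) and Hspg2 (-0.89) were lower in EpRas cells, and TGF-β lowered Sdc4 by 0.89 in those cells (log2 change -0.89), all 3 with an adjusted p over 0.05 in at least 4 alternatives.

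Of 13 tested heparan sulfate enzymes, 3 were higher and 3 lower in untreated EpRas cells, and 1 was higher and 3 lower with TGF-β, beside 17.6% and 21.3% of all genes called. The sulfotransferase Hs6st2 measured 10.2 ± 0.464 FPKM in untreated EpH4 cells and was listed at 0 in all 4 EpRas libraries (adjusted p = 1.21e-05 without and 1.24e-05 with TGF-β, limma, and 4.34e-05 and 4.19e-05 among all genes above 0). Sulf1, which removes sulfate groups from heparan sulfate, measured 2.76 ± 0.450 FPKM untreated and 6.64 ± 0.761 FPKM with TGF-β in EpH4 cells and was also listed at 0 in EpRas cells (adjusted p = 0.000320 and 3.23e-05, limma, and 0.000644 and 0.000135 among all genes above 0). Hs6st1 was lower in EpRas cells with TGF-β (-1.31, limma, adjusted p = 0.00425) and without it (-0.87, limma, adjusted p = 0.0277). The call without TGF-β was lost with the replicate block (limma, adjusted p = 0.0560) and when only the 2 groups were fitted (limma, adjusted p = 0.0832). It was also lost without the second untreated EpH4 library (-0.67) or the second untreated EpRas library (-0.65), and without either EpH4 library with TGF-β. Ext1, which builds the chains, rose in EpH4 cells with TGF-β from 26.1 ± 1.75 to 78.9 ± 4.54 FPKM (1.56, limma, adjusted p = 0.000761). The rise of Sulf1 in EpH4 cells (1.03, limma, adjusted p = 0.00793) was lost without the first untreated library or either treated library of EpH4. TGF-β lowered Hs3st1 in EpRas cells (log2 change -1.80, limma, adjusted p = 0.0217), a call lost in 8 alternatives.

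Among 18 tested adaptors and effectors, none was higher in EpRas cells by limma and 5 were lower without TGF-β and 6 with it, beside 829 and 1123 lower among all 9100 genes. Grb14, an adaptor that binds Fgfr1, measured 12.1 ± 2.34 and 2.21 ± 0.235 FPKM in the untreated lines (log2 change -2.02, limma, adjusted p = 0.00246, and 0.00645 among all genes above 0), and the change with TGF-β was -2.03 (limma, adjusted p = 0.00165, and 0.00488 among all genes above 0). Ptpn11, the phosphatase Shp2 downstream of the receptors, was lower by 0.89 without TGF-β (log2 change -0.89, limma, adjusted p = 0.00674) and by 0.86 with it (log2 change -0.86, limma, adjusted p = 0.00589, and 0.0636 without the first EpH4 library with TGF-β). With TGF-β in EpH4 cells Pik3r1 fell (log2 change -1.08, limma, adjusted p = 0.00522, and over 0.05 without either treated library), while Gab2 (1.10) and Stat3 (0.67) rose with calls that were lost in at least 7 alternatives. Gab2 was also called with TGF-β in EpRas cells (1.30, limma, adjusted p = 0.0422), lost in 9 alternatives.

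Of 7 tested feedback and target genes, 3 were higher and 1 lower in untreated EpRas cells, and 4 were higher and 1 lower with TGF-β, again beside 17.6% and 21.3% of all genes. Dusp6, a phosphatase that acts on ERK, measured 8.95 ± 0.410 and 21.9 ± 2.86 FPKM in untreated EpH4 and EpRas cells (1.20, limma, adjusted p = 0.00407) and 5.74 ± 0.528 and 35.6 ± 5.08 FPKM with TGF-β (2.44, limma, adjusted p = 0.000108). Spry1, an inhibitor of receptor tyrosine kinase signaling, measured 53.1 ± 0.00389 and 13.4 ± 1.60 FPKM in the untreated lines (log2 change -1.91, limma, adjusted p = 0.000645), and TGF-β lowered it to 14.3 ± 1.63 FPKM in EpH4 cells (log2 change -1.82, limma, adjusted p = 0.00111). Etv4 was higher in untreated EpRas cells (0.78, limma, adjusted p = 0.0189), a call lost without any 1 of the 4 libraries. With TGF-β, Etv5 (0.90, limma, adjusted p = 0.00548) and Spred1 (0.86, limma, adjusted p = 0.0463) were higher in EpRas cells. The first call was lost without the first EpH4 library with TGF-β and the second in 12 alternatives. Etv4 was also higher in EpRas than in EpH4 cells with TGF-β (68.5 ± 4.51 against 41.7 ± 6.66 FPKM). Likewise, Etv5 was higher in EpRas cells without it (10.2 ± 0.976 against 5.83 ± 0.532 FPKM). The libraries of the lines did not overlap in either case.

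Among 10 tested regulators of Fgfr2 splicing, Esrp1, which promotes the epithelial form, measured 53.2 ± 13.3 and 21.7 ± 3.98 FPKM in untreated EpH4 and EpRas cells (log2 change -1.25, limma, adjusted p = 0.00958, and up to 0.0633 without the second library of either group). With TGF-β it measured 58.4 ± 0.0875 and 16.2 ± 2.49 FPKM (log2 change -1.79, limma, adjusted p = 0.00152). Esrp2 was lower in EpRas cells with TGF-β (-1.15, limma, adjusted p = 0.0110, and 0.0909 without the second EpH4 library with TGF-β). Rbfox2, another splicing factor of this list, was higher in untreated EpRas cells (0.91, limma, adjusted p = 0.00768, up to 0.0532 without 1 library) and rose with TGF-β in EpH4 cells (0.64, limma, adjusted p = 0.0434), a call lost in 9 alternatives.

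Of the other pathway genes, 64 were tested among the siRNA libraries. Of these, none was 2-fold higher with both pairs, and 3 were lower without TGF-β and 4 with it, among them the targets Etv4 and Etv5. Of all 9094 genes, 4.02% and 3.82% were counted, 226 of them lower in each case. The others were the sulfotransferase Hs3st1 in both cases and, only with TGF-β, the syndecan Sdc1. Hs3st1 measured 12.5 FPKM with siNC and 3.14 and 2.5 FPKM with the pairs without TGF-β. With TGF-β it measured 3.49, 0.132 and 0.66 FPKM in the same order. Sdc1 measured 1038 FPKM with siNC and 291 and 478 FPKM with the pairs in the presence of TGF-β. TGF-β over the 3 siRNA conditions raised 4 and lowered 2 of the 64 by limma. This test called 4.17% of all 9094 genes, 238 of them higher and 141 lower. Those raised were Ncam1 (2.03), Sdc3 (1.55), Gab2 (1.12) and Cblb (0.71), and those lowered were Hs3st1 (-1.51) and Pik3r1 (-0.84). Gab2 reached 5 FPKM only with TGF-β, and Hs3st1 and Pik3r1 only without it, so their p-values are not independent of the filter. All 6 calls were lost without pair 1, and also when all genes above 0 were tested (limma, adjusted p from 0.0749 to 0.106).

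As a description over the 8 untransfected libraries, the tested genes whose log2(FPKM + 1) followed each member most closely were named by Pearson's r. For Fgfr1 they were Ehbp1l1 (0.991), Dyrk3 (0.986) and Ubqln2 (0.985), and for Fgfr2 Fabp5 (0.996) and Msx2 (0.990). For Fgfbp1 they were Mgp (0.973), Socs5 (0.967) and Lhfp (0.964), and for Fgf21 Vamp8 (0.985), Rtp4 (0.980) and Sec14l2 (0.979). The 8 points fall into 4 groups of 2 and share line, serum and treatment.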

How the data were processed

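Per the labels and the study's methods, the authors purified mRNA, made libraries for directional sequencing on the Ion Proton, aligned reads to mm10 with TopHat2 (2.0.11) and Bowtie2, and quantified genes with Cuffdiff (Cufflinks 2.2.0). The deposited values are FPKM for each gene and library with the interval Cuffdiff gives, in 2 tables made in separate runs, so tests stayed within a table. FPKM depends on the total of a library and on the length assigned to a gene. Genes without an OK status (3 and 2) were left out, and 0 columns were unmapped.

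The 9 members and all gene lists were chosen with earlier results of these data known. Here log2(FPKM + 1) was fitted with limma 3.58.1 (R 4.3.3) over all genes with a maximum of at least 5 FPKM (9100 and 9094), 1 mean for each group and Benjamini-Hochberg adjustment over all of them. A call is an adjusted p under 0.05. The scripts were tested on simulated data. Of each pathway list up to 3 called genes with the largest change were named for each comparison, and for each tested member the 3 genes with the highest Pearson's r. Some genes that this rule names are not reported here.

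Reads of 5 low members are the smallest whole numbers (within 0.02) that the FPKM steps of both tables allow, with depth taken from the steps of all low genes. Exact intervals (Clopper-Pearson, 95%) and the limit of 3 reads use scipy 1.17.1. Promoter sequences (RefSeq, GRCm38.p6) were matched by symbol for 7 members. Alternatives were other pseudocounts, filters and scalings, fits of 2 groups, the replicate block, a Tukey-Kramer test and leaving out each library. Depth was not given and precision is limited by 2 libraries for each group.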

Additional observations from a re-analysis of the deposited data

How the results depend on the processing

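The direction of each of the 4 tested members held in all alternatives but 3: Fgfbp1 between the lines with TGF-β ranged from -0.029 without the second EpH4 library with TGF-β to 0.32 without the first, and Fgf21 for TGF-β in EpRas cells was -0.14 without the first untreated and -0.00066 without the second treated EpRas library, in a range up to 0.55. Between the lines without TGF-β, 3 members were called, and 1 to 3 when 1 library was left out. Between the lines with TGF-β, 2 were called, 2 to 3 without 1 library, 3 with quantile normalization (Fgfr1 added), 3 with no filter (Fgf1 added) and 0 with a mean of at least 10 FPKM, which keeps neither Fgfr2 nor Fgf21. For TGF-β in EpH4 cells, 2 were called, 4 with a pseudocount of 5 FPKM, 1 with a mean of at least 10 FPKM and 0 to 3 without 1 library. For TGF-β in EpRas cells, 1 was called, 0 when only the 2 EpRas groups were fitted and 0 to 2 without 1 library. Over the siRNA conditions, 1 was called for TGF-β, 2 with a pseudocount of 5 FPKM, 0 with no filter and 0 to 2 without 1 siRNA condition. For Etv4/5 siRNA, 0 members passed 2-fold with both pairs and 2 did with no filter and a pseudocount of 0.1 FPKM, both with and without TGF-β. Where a library was left out, the lone library of its group was assumed to vary like the others, and the cause of a lost call was not tested beyond the smaller number of libraries. Replicate numbers did not pair the samples (correlations of deviations from -0.35 to 0.08), and the fit with the replicate block left the counts of members at 3, 2, 2, 1 and 0 while all-gene calls went from 1598, 1935, 855, 348 and 73 to 1121, 1520, 547, 222 and 31. No scaling moved the median of all genes by over 0.1. All-gene calls were 45 for TGF-β in EpRas cells when only 2 groups were fitted, and over the siRNA conditions 1 with no filter, 17 without pair 1, 113 without pair 2 and 752 without siNC, against 379. With a mean of at least 10 FPKM, all-gene calls for the 5 comparisons were 880, 1092, 559, 225 and 24, and with no filter those for the difference between lines were 117. Without 1 library, they ranged from 736 to 2104, 816 to 2370, 242 to 1153, 135 to 407 and 11 to 133. Of 53 named gene and comparison pairs of the pathway lists, 24 were called in every alternative and none changed direction.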
